A study of Mus musculus with 96 samples.

Results

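The Cyp4 enzymes described here are 6 cytochrome P450 genes of the mouse liver: Cyp4a10, Cyp4a14, Cyp4f13, Cyp4f14, Cyp4f15 and Cyp4v3. A gene was taken as measured where the array has a probe set annotated with its symbol alone. Where there were several, the brightest one, by its average over the 96 arrays, stood for the gene. By that rule 5 of the 6 genes were measured, among 18193 genes in all. Cyp4a10 has no probe set of its own. Its only probe set also carries the symbol Cyp4a31, and it is given below as the shared Cyp4a10/Cyp4a31 probe set, from a separate fit of all 45037 probe sets.

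Cyp4 enzymes are heme proteins of the endoplasmic reticulum that add a hydroxyl group to the far (omega) end of fatty acids and related lipids, with electrons passed on by P450 reductase and cytochrome b5. Omega-hydroxy fatty acids can then be oxidized to dicarboxylic acids, which peroxisomes shorten. In mouse liver the Cyp4a genes are well-known targets of PPAR alpha, the nuclear receptor that is active in fasting, whereas members of the Cyp4f subfamily also inactivate leukotrienes, the lipid signals of inflammation.

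The series measured liver total RNA of CD-1 mice, an outbred stock, on 96 single-colour expression arrays. Females and males were given PB in the diet at 0.15, 1.5, 15, 75 and 150 mg/kg-day, or a dose of 0, for 7 or 2 days, which makes 24 groups of 4 arrays. PB is left unexpanded in the labels and is the usual short form of phenobarbital in studies of the nuclear receptor CAR (gene Nr1i3), which the series title names. The sample titles write ppm after the same numbers, a conflict the data did not settle. The labels do not say that each array is a separate mouse, so every p-value measures the spread between these arrays, and the number of arrays limits the precision. All values are the deposited log2 values, and a difference of 1 is a doubling. In bulk liver RNA, fewer cells of a type and less RNA per cell cannot be told apart.

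The array labels were checked first. Xist, which is transcribed from the inactive X chromosome, lay between 12.003 and 12.503 in the 48 female arrays and between 4.63 and 5.89 in the 48 male arrays. Cyp2b10 and Cyp2c55, P450 genes that follow CAR activation, were high at 150 (13.36 to 13.70 for Cyp2b10) and low at 0 (6.41 to 9.31). A pair of male day 2 arrays stood apart. The array labelled 15, replicate 1, had Cyp2b10 at 13.66 and Cyp2c55 at 13.01, and the array labelled 75, replicate 1, had them at 10.98 and 9.82. The other male day 2 arrays had 11.07 to 11.29 and 8.89 to 10.14 at 15, and 13.19 to 13.36 and 12.54 to 12.74 at 75. Each array of the pair was thus nearer to the other's group than to its own. Whether their labels were exchanged was not tested. The calls and averages that include either array are given with and without both where leaving them out moves them, and the plots and group means hold all 96 arrays unless stated. Of the 7 hepatocyte markers measured, none lay on average at or below the arrays' lower quartile (at most 4.09), and all 5 measured Cyp4 genes lay above it in every array.

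Sequence upstream of the genes bears on 3 members that lie in 1 cluster. Cyp4f14, Cyp4f13 and Cyp4f15 are all on mouse chromosome 17, with Cyp4f14 and Cyp4f13 as immediate neighbours. Each has a CCAAT box on the reverse strand, read as ATTGG, 50 to 78 bases before an annotated start, and the 70 bases around it (RefSeq, GRCm38.p6, gene strand, ATTGG in capitals) are shown to let the 3 genes be compared.
Cyp4f13, chr17:32947408-32947477, minus strand: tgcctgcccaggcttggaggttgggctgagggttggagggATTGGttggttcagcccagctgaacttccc
Cyp4f14, chr17:32917377-32917446, minus strand: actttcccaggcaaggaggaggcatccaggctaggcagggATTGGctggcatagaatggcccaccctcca
Cyp4f15, chr17:32685541-32685610, plus strand: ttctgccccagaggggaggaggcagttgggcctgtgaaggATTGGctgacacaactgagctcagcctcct
CCAAT on either strand was found in the 250 bases before the start in 33.8% of 32851 such windows, so its presence alone is common. AGGTCA, the unit that is repeated in binding sites of PPAR alpha and CAR, and TATAAA were searched the same way on both strands. They were present in 14.0% and 12.4% of all windows, and in none of Cyp4f13, Cyp4f14, Cyp4f15 or Cyp4v3. The same holds for 2 copies of AGGTCA with 1 base (0.0335% of windows) or 4 bases (0.0152%) between them, which overlap the single-copy search. The window of Cyp4v3 held no CCAAT either. Only these exact letters were searched, and most windows of all genes lack each motif, so absence alone is common too. Cyp4a10 and Cyp4a14 had no window and were not searched. The motifs were chosen with these sequences in view.

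At 150 mg/kg-day against 0, averaged over both sexes and both days, 5 of the 5 measured genes passed the test, in limma with Benjamini-Hochberg adjustment over all genes and a threshold of 0.05. In that comparison 17.7% of all 18193 genes passed, 8.27% as higher and 9.42% as lower, and the median change over all genes was -0.01 on the log2 scale. Cyp4f15, a leukotriene and fatty acid hydroxylase of the Cyp4f subfamily, rose by 0.39 on the log2 scale (1.31-fold). The other 4 fell, Cyp4v3 by 0.38, Cyp4f14 by 0.27, Cyp4f13 by 0.25 and Cyp4a14 by 1.36 (2.56-fold). These changes are small beside those of Cyp2b10 and Cyp2c55, whose log2 changes were 5.78 and 6.28.

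**Figure D1:**
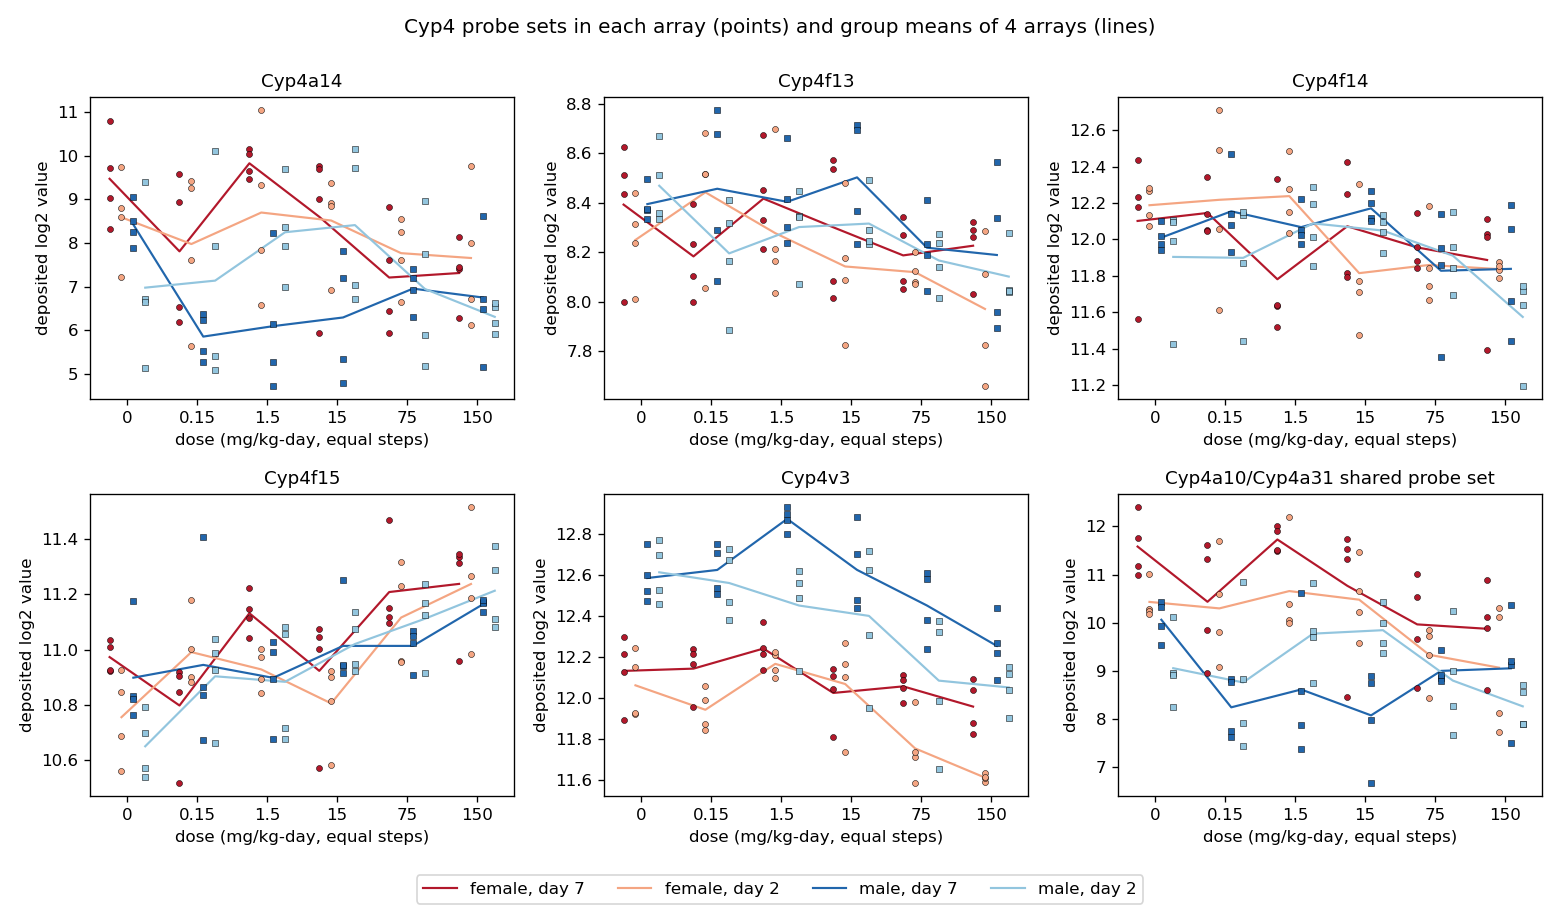
Deposited log2 value (vertical axes) of the 5 measured Cyp4 genes and of the shared Cyp4a10/Cyp4a31 probe set at each dose (horizontal axes, mg/kg-day, in equal steps). Points are single arrays and lines join the means of 4 arrays; circles are females and squares males, with the darker shade for day 7. The means of Cyp4f15 are highest and those of Cyp4v3 lowest at 150, except that the male day 2 mean of Cyp4v3 is lowest at 75 (11.99) once the doubted array is left out; Cyp4v3 lies lower in females than in males, and Cyp4a14 spreads from 4.73 to 11.04.

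Cyp4f15 was the 1 member that rose. Its mean over 16 arrays was 11.21 at 150 and 10.82 at 0, a log2 change of 0.39 (SE 0.06, adjusted p = 1.23e-07). On day 7, females at 150 had 11.33, 11.35, 10.96 and 11.31, against 10.92, 11.01, 11.04 and 10.92 at 0, and males at 150 had 11.17, 11.14, 11.17 and 11.18, against 10.83, 11.18, 10.76 and 10.82 at 0. The groups overlapped on day 7, through 1 low array at 150 in females and 1 high array at 0 in males. On day 2, females at 150 had 10.98, 11.27, 11.51 and 11.19, against 10.92, 10.69, 10.85 and 10.56 at 0, and males at 150 had 11.11, 11.29, 11.08 and 11.38, against 10.57, 10.54, 10.79 and 10.70 at 0. All 4 arrays at 150 lay above all 4 at 0 in either sex on day 2.

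The log2 change of Cyp4f15 at 150 was 0.27 in females (adjusted p = 0.265) and 0.27 in males (adjusted p = 0.231) on day 7, and 0.48 in females (adjusted p = 0.00345) and 0.56 in males (adjusted p = 0.000589) on day 2. The difference between the days, day 7 minus day 2, was -0.26 (95% interval -0.49 to -0.03) and did not pass after adjustment (adjusted p = 0.305), nor did that between the sexes, female minus male, of -0.04 (95% interval -0.27 to 0.19, adjusted p = 0.999).

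Across the doses 0, 0.15, 1.5, 15, 75 and 150, the group means of Cyp4f15 were 10.97, 10.80, 11.13, 10.92, 11.21 and 11.24 in females on day 7, and 10.90, 10.94, 10.90, 11.01, 11.01 and 11.16 in males on day 7. On day 2 they were 10.76, 10.99, 10.93, 10.81, 11.12 and 11.24 in females, and 10.65, 10.90, 10.88, 11.02, 11.11 and 11.21 in males. Their SD ran from 0.02 to 0.32 (n = 4 each). Without the doubted arrays the male day 2 means were 10.98 at 15 and 11.18 at 75 (n = 3 each). The highest mean of each series was thus at 150, and in the order of all 24 group means no gap between neighbours exceeded the SD of both. Cyp4f15 also rose over the order of the doses, by 0.07 log2 units per step (SE 0.01, adjusted p = 5.98e-09), in a comparison where 10.7% of all genes passed as rising.

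Cyp4v3, the mouse counterpart of human CYP4V2, a fatty acid omega-hydroxylase, was called in the opposite direction. It averaged 11.97 at 150 and 12.35 at 0, a log2 change of -0.38 (SE 0.06, adjusted p = 5.93e-07). On day 7, females at 150 had 12.09, 12.04, 11.82 and 11.88, against 11.89, 12.21, 12.30 and 12.13 at 0, and males at 150 had 12.09, 12.27, 12.44 and 12.22, against 12.52, 12.47, 12.60 and 12.75 at 0. The female groups overlapped, and the male groups did not. On day 2, females at 150 had 11.59, 11.63, 11.61 and 11.61, against 11.92, 12.15, 12.24 and 11.93 at 0, and males at 150 had 12.04, 12.11, 11.90 and 12.15, against 12.77, 12.52, 12.46 and 12.70 at 0. On day 2 the groups were apart in both sexes, and the 4 female arrays at 150 were nearly equal.

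The log2 change of Cyp4v3 at 150 was -0.17 in females (adjusted p = 0.568) and -0.33 in males (adjusted p = 0.119) on day 7, and -0.45 in females (adjusted p = 0.00952) and -0.56 in males (adjusted p = 0.000874) on day 2. The difference between the days was 0.25 (95% interval 0.02 to 0.49, adjusted p = 0.333) and that between the sexes 0.13 (95% interval -0.10 to 0.37, adjusted p = 0.999), so neither passed. The female day 2 call was lost without the dose 0 array of replicate 3 (-0.39, adjusted p = 0.0664). A second probe set of Cyp4v3 gave -0.49 for the average at 150 (adjusted p = 4.94e-08), and it turned 2 calls: -0.42 in females on day 2 (adjusted p = 0.0729) and -0.52 in males on day 7 (adjusted p = 0.026).

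Across the doses 0, 0.15, 1.5, 15, 75 and 150, Cyp4v3 means were 12.13, 12.14, 12.24, 12.02, 12.06 and 11.96 in females on day 7, and 12.58, 12.62, 12.87, 12.62, 12.45 and 12.25 in males on day 7. On day 2 they were 12.06, 11.94, 12.17, 12.07, 11.75 and 11.61 in females, and 12.61, 12.56, 12.45, 12.40, 12.08 and 12.05 in males. The SD of a group ran from 0.02 to 0.35, and the lowest mean of each series was at 150. In males on day 2 this order holds only with the doubted arrays: without them the means were 12.55 at 15 and 11.99 at 75 (n = 3 each), and the lowest was at 75. In the order of the 24 means, 2 gaps between neighbours exceeded the SD of both: that below males on day 7 at 1.5 (0.25) and that above females on day 2 at 75 (0.19). Over the dose order Cyp4v3 fell by 0.08 log2 units per step (SE 0.01, adjusted p = 1.52e-09), where 13% of all genes passed as falling.

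**Figure D2:**
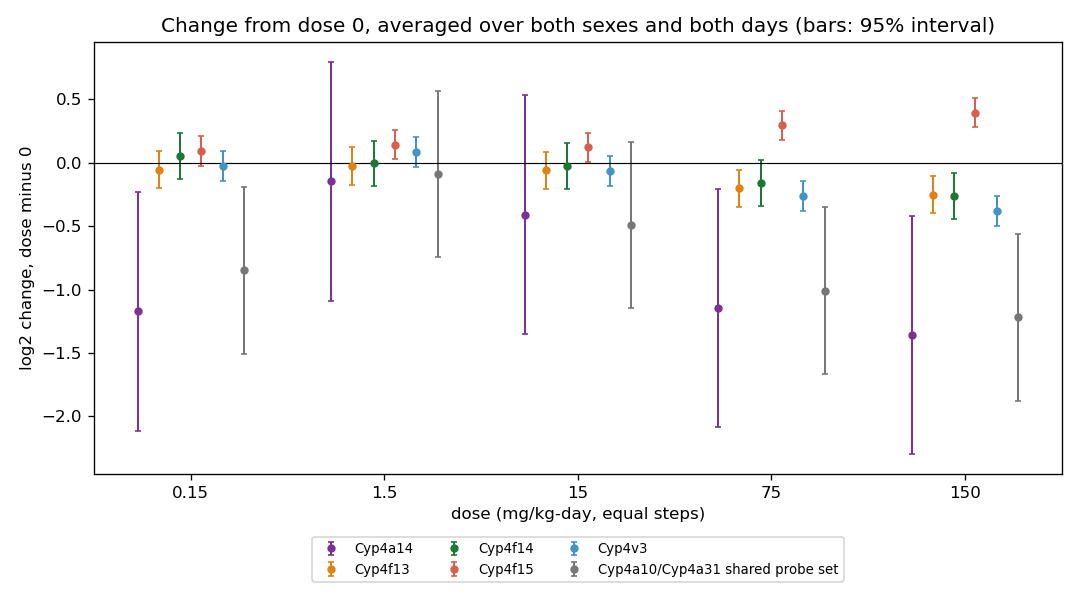
Log2 change from dose 0 (vertical axis) at each dose (horizontal axis, mg/kg-day, in equal steps), averaged over both sexes and both days. Points are the fitted changes and bars their 95% intervals. Only Cyp4f15 lies above 0 at 150 (0.39), and the bars of Cyp4a14 and of the shared probe set are several times wider than those of the other genes.

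Cyp4f14, an omega-hydroxylase of leukotriene B4 in mice, averaged 11.78 at 150 and 12.05 at 0 (log2 change -0.27, SE 0.09, adjusted p = 0.0298). On day 7, females at 150 had 12.11, 12.03, 11.40 and 12.01, against 11.56, 12.44, 12.18 and 12.23 at 0, and males at 150 had 11.44, 11.66, 12.19 and 12.06, against 11.94, 12.10, 12.02 and 11.98 at 0. On day 2, females at 150 had 11.79, 11.83, 11.88 and 11.85, against 12.27, 12.13, 12.07 and 12.28 at 0, and males at 150 had 11.72, 11.20, 11.74 and 11.64, against 12.10, 11.99, 12.10 and 11.43 at 0. Only the female day 2 groups were apart, and no single sex and day passed (log2 changes of -0.35 to -0.17, adjusted p = 0.332 to 0.739). The averaged call was lost when the arrays of replicate 2 were left out of every group (-0.19, adjusted p = 0.271) or those of replicate 3 (-0.26, adjusted p = 0.102).

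Cyp4f13, which lies next to Cyp4f14, averaged 8.12 at 150 and 8.38 at 0 (log2 change -0.25, SE 0.07, adjusted p = 0.0086). On day 7, females at 150 had 8.29, 8.32, 8.03 and 8.26, against 7.998, 8.62, 8.51 and 8.44 at 0, and males at 150 had 7.96, 7.89, 8.56 and 8.34, against 8.33, 8.37, 8.37 and 8.50 at 0. On day 2, females at 150 had 7.82, 7.66, 8.11 and 8.29, against 8.32, 8.24, 8.01 and 8.44 at 0, and males at 150 had 8.04, 8.28, 8.05 and 8.05, against 8.67, 8.36, 8.34 and 8.51 at 0. Only the male day 2 groups did not overlap. No single sex and day passed (log2 changes of -0.37 to -0.17, adjusted p = 0.16 to 0.697), and the averaged call was lost without the arrays of replicate 1 (-0.24, adjusted p = 0.0616).

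Over the order of the doses both genes fell, Cyp4f13 by 0.05 per step (adjusted p = 0.00141) and Cyp4f14 by 0.06 per step (adjusted p = 0.00321). The call of Cyp4f14 was lost without the arrays of replicate 2 (-0.05, adjusted p = 0.0618). Their 24 group means lay between 7.97 and 8.50 for Cyp4f13 and between 11.58 and 12.24 for Cyp4f14, with an SD of 0.06 to 0.32 and of 0.04 to 0.49, and no neighbours in either order differed by more than the SD of both.

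Cyp4a14, a PPAR alpha target that hydroxylates fatty acids, had the largest mean change of the 5 and by far the widest spread. It averaged 7.01 at 150 and 8.37 at 0 (log2 change -1.36, SE 0.47, adjusted p = 0.0334). On day 7, females at 150 had 7.40, 8.14, 6.27 and 7.45, against 9.03, 8.33, 10.81 and 9.72 at 0, and males at 150 had 8.62, 6.73, 6.49 and 5.17, against 8.51, 8.26, 7.88 and 9.05 at 0. The female groups did not overlap, and in males 1 array at 150 was among those at 0. On day 2, females at 150 had 8.01, 6.71, 9.78 and 6.13, against 8.81, 9.74, 8.60 and 7.22 at 0, and males at 150 had 6.54, 6.63, 5.91 and 6.16, against 9.41, 5.15, 6.72 and 6.64 at 0. Both day 2 comparisons overlapped widely.

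No single sex and day passed for Cyp4a14 at 150. Its log2 changes were -2.16 in females (adjusted p = 0.265) and -1.67 in males (adjusted p = 0.414) on day 7, and -0.93 in females (adjusted p = 0.715) and -0.67 in males (adjusted p = 0.821) on day 2. The male day 2 value was 0.14 without the dose 0 array of replicate 1. The averaged call was lost without the arrays of any 1 of the 4 replicate numbers (-1.54 to -1.17, adjusted p = 0.0621 to 0.148), and the change per dose step of -0.20 did not pass (adjusted p = 0.0588).

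The group means of Cyp4a14 did not run in the order of the doses. Across the doses 0, 0.15, 1.5, 15, 75 and 150 its means were 9.47, 7.81, 9.83, 8.60, 7.21 and 7.31 in females on day 7, and 8.42, 5.86, 6.10, 6.30, 6.96 and 6.75 in males on day 7. On day 2 they were 8.59, 7.98, 8.70, 8.52, 7.77 and 7.66 in females, and 6.98, 7.14, 8.25, 8.41, 6.95 and 6.31 in males. The SD of a group ran from 0.32 to 2.36. Without the doubted arrays the male day 2 means were 7.83 at 15 and 6.69 at 75. The averaged change was -1.17 already at 0.15 (SE 0.47, 95% interval -2.11 to -0.23, adjusted p = 0.631), -0.15 at 1.5 and -0.41 at 15 (-0.56 without the doubted arrays), none of which passed. In males on day 7, the arrays at 0.15 (6.24, 5.28, 5.53 and 6.37) all lay below those at 0. The same groups were apart, one way or the other, for 2.45% of all genes.

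The spread of Cyp4a14 between arrays of 1 group, an SD of 1.38 pooled over the 24 groups, was larger than that of 99.95% of the 18193 genes, whose median SD was 0.15. For the other 4 genes it was 0.17 to 0.26. In females on day 2 at 1.5, for example, the 4 arrays read 7.85, 11.04, 9.34 and 6.58. The spread was alike in females (SD 1.35) and males (SD 1.40) and lay between 1.16 and 1.72 at every dose, lowest at 150 and highest at 0.15.

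The shared Cyp4a10/Cyp4a31 probe set, whose level cannot be set against that of Cyp4a14, also fell at 150 on average. Cyp4a10 is a lauric acid hydroxylase and the neighbour of Cyp4a14 on chromosome 4. The probe set averaged 9.06 at 150 and 10.28 at 0 (log2 change -1.22, SE 0.33, adjusted p = 0.00614), in a fit where 12% of 45037 probe sets passed. On day 7, females at 150 had 9.89, 10.89, 8.60 and 10.12, against 11.19, 10.99, 12.39 and 11.76 at 0, and males at 150 had 10.38, 9.12, 9.21 and 7.49, against 9.94, 10.44, 9.54 and 10.33 at 0. On day 2, females at 150 had 10.11, 8.11, 10.31 and 7.73, against 11.01, 10.29, 10.25 and 10.18 at 0, and males at 150 had 7.89, 8.70, 7.89 and 8.56, against 10.11, 8.24, 8.95 and 8.92 at 0. The female day 7 groups were apart and the other 3 pairs overlapped. As an alternative, the probe set was refitted only without the doubted arrays, where its change at 150 was -1.22 (adjusted p = 0.00681). In that fit its change at 75 was -1.03 (adjusted p = 0.0587) and that per dose step -0.20 (adjusted p = 0.00643). Leaving out replicate numbers, which ended the call of Cyp4a14, was not done for this probe set.

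Within groups, array by array, the deviations of Cyp4a14 from its group mean ran with those of the shared probe set (Pearson r = 0.89, Spearman rho = 0.89, 96 arrays). They also ran with those of Cyp4a31 measured by its own probe set (r = 0.75, rho = 0.73). These are descriptions: the genes are closely related copies in 1 cluster, and the files do not show how far their probes share transcripts. Cyp4a31 itself had a log2 change of -0.09 at 150 (adjusted p = 0.807).

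**Figure D3:**
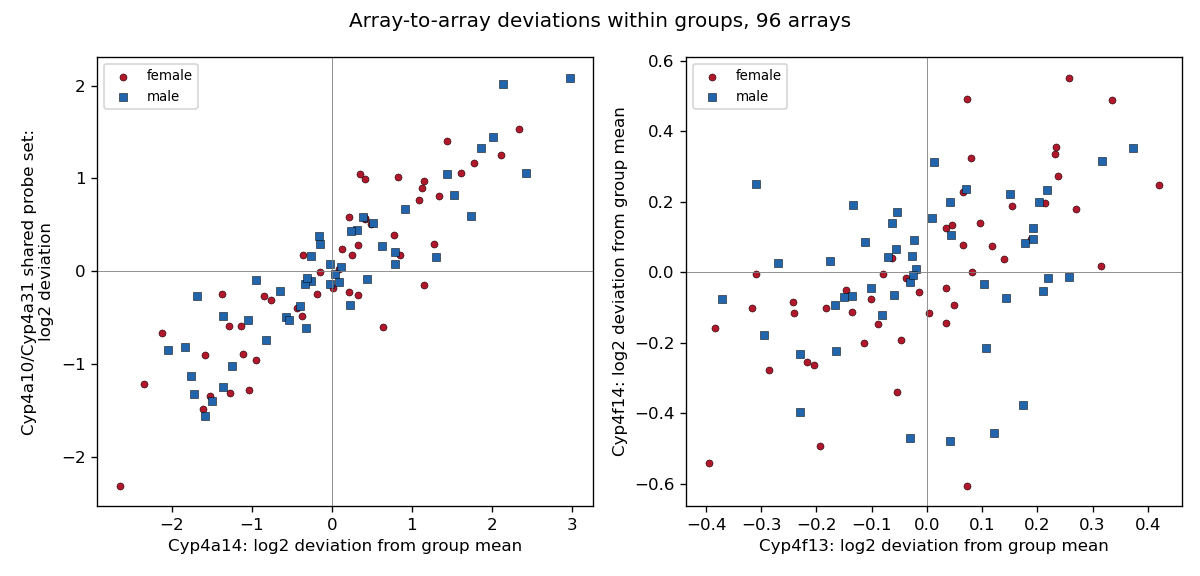
Deviation of each of 96 arrays from the mean of its group of 4, in log2 units: Cyp4a14 (horizontal) and the shared Cyp4a10/Cyp4a31 probe set (vertical) on the left, Cyp4f13 (horizontal) and Cyp4f14 (vertical) on the right. Circles are females and squares males. The points on the left lie close to a line (r = 0.89) and span over 2 units to either side, and those on the right scatter more (r = 0.51), between -0.61 and 0.55 for Cyp4f14.

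At 75, 2 of the 5 genes passed on average, where 8.92% of all genes passed. Cyp4f15 rose by 0.29 (SE 0.06, adjusted p = 0.000268), or by 0.31 without the pair of doubted arrays (adjusted p = 0.000146). Cyp4v3 fell by 0.26 (SE 0.06, adjusted p = 0.0017), or by 0.29 without them (adjusted p = 0.000217). The log2 changes of Cyp4f13 (-0.20, adjusted p = 0.0687), Cyp4f14 (-0.16, adjusted p = 0.281) and Cyp4a14 (-1.15, adjusted p = 0.118) did not pass, with or without those arrays. That of Cyp4f13 passed with array weights (-0.21, adjusted p = 0.0499) and after quantile normalization (-0.23, adjusted p = 0.0368). At 75 all 9 Kupffer cell and macrophage markers were higher on average (0.20 to 0.60), 5 of them past the test (Cd5l, Csf1r, Cd68, Timd4 and Mpeg1). Also past the test were S100a8 (neutrophil, 1.38), Col1a1 (stellate cell, 0.36), Cela1 (pancreas, -0.46) and F2 (hepatocyte, -0.09). The part of these cell types in these results was not tested.

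By sex and day, the calls at 75 were both in males on day 2, where 0.44% of all genes passed. Neither gene's groups overlapped there, as for 5.77% of all genes. Males on day 2 at 75 had Cyp4f15 at 10.92, 11.12, 11.24 and 11.17, all above the 4 values at 0 given above. Cyp4v3 there read 12.37, 11.99, 11.65 and 12.32, all below its values at 0. The first value of each set is that of the doubted array, which was the lowest of its group for Cyp4f15 and the highest for Cyp4v3. The log2 change was 0.46 for Cyp4f15 (adjusted p = 0.0393) and -0.53 for Cyp4v3 (adjusted p = 0.0141), and 0.53 (adjusted p = 0.0155) and -0.63 (adjusted p = 0.000717) without the doubted arrays.

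These calls at 75 were not stable when other single arrays were left out. For Cyp4f15 the call was lost without the dose 0 array of replicate 1, 2 or 4 or the dose 75 array of replicate 2, 3 or 4 (0.42 to 0.48, adjusted p = 0.0723 to 0.214). For Cyp4v3 it was lost without the dose 0 array of replicate 1 or 4 or the dose 75 array of replicate 2 or 3 (-0.50 to -0.39, adjusted p = 0.0622 to 0.296). Over all alternatives run, the call was lost in 8 of 16 for Cyp4f15 and in 5 of 17 for Cyp4v3. This is more than the arrays named here account for.

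At 15, 1.5 and 0.15 none of the 5 genes passed in limma on average, where 0.11% of all genes passed at 15 and 0% at the lower doses. Before adjustment, 95% intervals left out 0 for Cyp4f15 at 15 (0.12, 0.01 to 0.24) and at 1.5 (0.14, 0.03 to 0.26), and for Cyp4a14 at 0.15 as given above. After adjustment the p-values of Cyp4f15 were 0.493 at 15 and 0.962 at 1.5. Without the doubted arrays the interval of Cyp4f15 at 15 held 0 (0.11, -0.0056 to 0.23). The doubted array labelled 15 had the highest Cyp4f15 (11.14) and the lowest Cyp4v3 (11.95) of its 4, whose other values were 11.07, 10.95 and 10.92 for Cyp4f15 and 12.62, 12.31 and 12.72 for Cyp4v3. Without the doubted arrays the averaged changes at 15 were 0.11 for Cyp4f15 and -0.03 for Cyp4v3, against 0.12 and -0.07 with them. With those arrays left out, the changes per dose step of Cyp4f15, Cyp4v3, Cyp4f13 and Cyp4f14 kept their calls, and that of Cyp4a14 passed (-0.21, adjusted p = 0.0466).

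**Figure D4:**
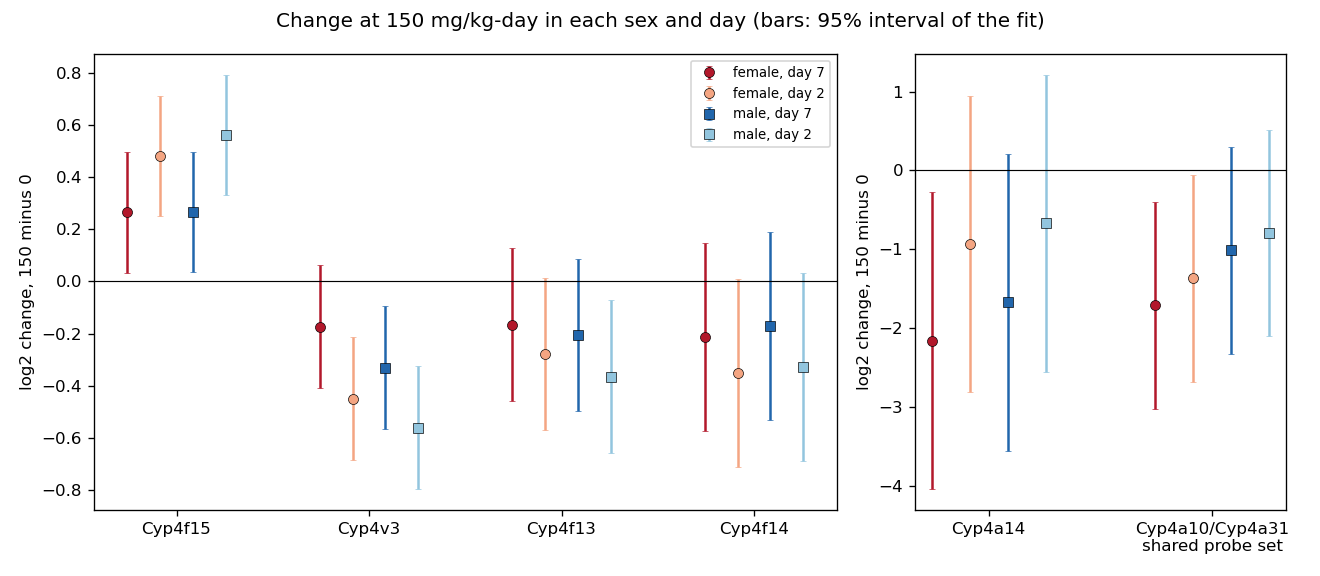
Log2 change at 150 against 0 (vertical axes) for each gene in each sex and day, with the 95% intervals of the fit as bars. The left panel holds Cyp4f15, Cyp4v3, Cyp4f13 and Cyp4f14, and the right panel Cyp4a14 and the shared probe set on a wider scale. All 4 changes of Cyp4f15 lie above 0, from 0.27 to 0.56, and all 20 of the others below it.

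Read by sex and day, the direction at 150 was the same in all 4 comparisons for each gene: higher for Cyp4f15, lower for Cyp4v3, Cyp4f13, Cyp4f14 and Cyp4a14. The averages that passed are means of these same 4 comparisons, so this agreement is not separate support. No share over all genes is given beside it. On day 7 none of the 5 passed in females, where 2.45% of all genes passed, and none in males, where 3.04% passed. On day 2, Cyp4f15 and Cyp4v3 passed in females, where 5.46% of all genes passed, and in males, where 4.9% passed. Of the 5 genes, 1 had groups that did not overlap in females on day 7 (8.65% of all genes), 1 in males on day 7 (8.01%), 3 in females on day 2 (10.1%) and 3 in males on day 2 (10.2%). For Cyp4a14, Cyp4f13 and Cyp4f14 the response at 150 did not pass as different between the days (adjusted p = 0.688 to 0.815, where 2.08% of all genes passed) or the sexes (adjusted p = 0.999, where 0.0715% passed).

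Kupffer cell and macrophage markers moved differently by sex and day at 150. On day 7 all 9 were higher at 150, by 0.09 to 0.63 in females (median 0.31) and by 0.41 to 1.28 in males (median 0.70), with Adgre1, Cd5l and Mpeg1 past the test in males. On day 2 their changes were -0.17 to 0.20 in females (median 0.01) and -0.67 to -0.03 in males (median -0.39), none past the test. The difference in response, day 7 minus day 2, had a median of 0.67 over the 9 markers and passed for Cd5l (0.95, adjusted p = 0.0413). Markers of other cell types passed too. On day 2, F2 (hepatocyte) was lower in males (-0.17) and females (-0.19), as was Clec4g (sinusoidal endothelial, -0.36 and -0.29). Females on day 2 also had Stab2 (sinusoidal endothelial, -0.53), S100a8 (neutrophil, 2.83) and Cela1 (pancreas, -0.81). Males on day 7 had S100a8 (3.22), Stab2 (-0.49) and the stellate cell markers Lrat (-0.88), Reln (-0.62) and Dcn (-0.46). Females on day 7 had Apoa1 (hepatocyte, -0.15) and Cela1 (-0.80). The part of these cell types in the Cyp4 changes by day was not tested.

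Between the sexes 2 of the 5 genes passed, over the 12 pairs of groups with the same dose and day. In that comparison 41.4% of all genes passed, so the count is near the share of all genes. Cyp4v3 was lower in females, with 12.01 in females and 12.46 in males (log2 difference -0.45, SE 0.03, adjusted p = 2.5e-19). At dose 0, females on day 7 had the 4 values 11.89, 12.21, 12.30 and 12.13 and males 12.52, 12.47, 12.60 and 12.75. On day 2 the females had 11.92, 12.15, 12.24 and 11.93 and the males 12.77, 12.52, 12.46 and 12.70. All females lay below all males on either day, and the sexes were apart, one way or the other, for 11.8% of all genes on day 7 and 6.99% on day 2.

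The female minus male difference of Cyp4v3 at dose 0 was -0.45 on day 7 (adjusted p = 0.0085, where 6.71% of genes passed) and -0.55 on day 2 (adjusted p = 0.00219, where 2.06% passed). The day 7 call was lost without the female array of replicate 1 (-0.37, adjusted p = 0.0681) or the male array of replicate 4 (-0.40, adjusted p = 0.0549). Cyp4a14 was higher in females, with 8.29 in females and 7.04 in males (difference 1.25, SE 0.27, adjusted p = 9.79e-05), but at dose 0 alone it did not pass on day 7 (1.05, adjusted p = 0.611) or day 2 (1.61, adjusted p = 0.541). Without the doubted arrays the averaged differences were -0.46 for Cyp4v3 (adjusted p = 6.86e-21) and 1.32 for Cyp4a14 (adjusted p = 4.83e-05). In the same comparison all 9 Kupffer cell and macrophage markers passed as higher in females (0.24 to 0.97, median 0.42), as did 6 of 8 stellate cell markers (all 8 at -0.07 to 0.59) and 4 of 8 sinusoidal endothelial markers (Stab1, Stab2, Clec4g and Oit3; all 8 at 0.05 to 0.26). Of the 7 hepatocyte markers 3 were higher and 3 lower (median 0.01). Sox9 (cholangiocyte, -0.57) and Camp (neutrophil, -0.12) passed as lower in females, and Cd3d (T and B cell, 0.19) as higher. The part of these cell types in the sex differences was not tested.

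The shared Cyp4a10/Cyp4a31 probe set was likewise higher in females, by 1.42 (SE 0.19, adjusted p = 2.43e-09), where 33.8% of probe sets passed, and by 1.45 without the doubted arrays (adjusted p = 3.51e-09). Among the Cyp4 genes outside the 6, Cyp4a31 was higher in females by 0.71 (adjusted p = 6.32e-08), and Cyp4a12a, known as the male-specific Cyp4a enzyme of mouse liver and kidney, differed by -6.64 (adjusted p = 1.14e-44). Cyp4f13 (-0.07, 95% interval -0.15 to 0.02), Cyp4f14 (0.05, -0.05 to 0.15) and Cyp4f15 (0.03, -0.03 to 0.10) had intervals that included 0. Without the arrays of replicate 2 the difference of Cyp4f13 was -0.12 and passed (adjusted p = 0.0281).

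Between the days, Cyp4v3 alone passed over the 12 pairs of groups with the same sex and dose, where 15.5% of all genes passed. It averaged 12.33 on day 7 and 12.15 on day 2 (difference 0.18, SE 0.03, adjusted p = 5.08e-05), and 0.18 without the doubted arrays (adjusted p = 2.83e-05). The differences of Cyp4f13 (0.09, adjusted p = 0.135), Cyp4f15 (0.05, adjusted p = 0.366), Cyp4f14 (0.04, adjusted p = 0.724) and Cyp4a14 (-0.22, adjusted p = 0.668) did not pass. The hepatocyte markers Tat (-0.29) and Hnf4a (-0.09) and the stellate cell marker Col1a1 (-0.17) passed as lower on day 7. Marco (macrophage, 0.38), Csf3r (neutrophil, 0.11) and Cd3d (T and B cell, 0.13) passed as higher. So did the sinusoidal endothelial markers Lyve1 (0.26), Kdr (0.10) and Oit3 (0.10). The part of these cell types in the day difference was not tested.

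Deviations from group means were compared for the 10 pairs of measured Cyp4 genes over 96 arrays, with p-values from 100000 permutations within groups, adjusted over the 10 pairs. Cyp4f13 and Cyp4f14 went together (r = 0.51, permutation p = 5e-05, adjusted p = 0.0005; rho = 0.56, permutation p = 1e-05, the smallest they can give, adjusted p = 0.0001). So did Cyp4f14 and Cyp4v3 (r = 0.38, permutation p = 0.00014, adjusted p = 0.0007; rho = 0.36, p = 0.00128, adjusted p = 0.0064). Cyp4f13 and Cyp4v3 had a weaker relation (r = 0.32, permutation p = 0.00166, adjusted p = 0.00553; rho = 0.34, p = 0.00203, adjusted p = 0.00677). The other 7 pairs, all 4 with Cyp4a14 and all with Cyp4f15 among them, had r between -0.04 and 0.18 and did not pass. The share of all gene pairs with such r is not given here, so these relations are not shown to be particular to the Cyp4 genes. Hpd (0.53), Chchd7 (0.52) and Dmgdh (0.52) followed Cyp4f13 more closely than Cyp4f14 did.

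These relations did not hold in every subset. Without the 2 arrays farthest from the median of the first gene, r was 0.47, 0.37 and 0.29 for the 3 pairs in the order above. For Cyp4f13 and Cyp4f14, r was 0.69 in females and 0.26 in males (adjusted permutation p = 0.536), and 0.73 on day 7 and 0.25 on day 2 (adjusted permutation p = 0.482). For Cyp4f14 and Cyp4v3, r was 0.61 in females and 0.23 in males, and 0.44 on day 7 and 0.36 on day 2. For Cyp4f13 and Cyp4v3, r was 0.32 in females and 0.34 in males, and 0.55 on day 7 and 0.16 on day 2. No pair passed in males alone or on day 2 alone. In females alone a further pair passed, Cyp4f15 and Cyp4v3 (r = 0.48 in females, adjusted permutation p = 0.00947, against -0.12 in males), whereas Cyp4f13 and Cyp4v3 did not (adjusted permutation p = 0.0926). Without the doubted arrays r was 0.50, 0.39 and 0.34 for the 3 pairs that passed, and they still passed. Without the arrays of replicate 1, the pairs of Cyp4v3 with Cyp4f14 (0.32, adjusted permutation p = 0.0888) and with Cyp4f13 (0.28, adjusted permutation p = 0.116) did not pass, nor did the last without those of replicate 2 (0.25, adjusted permutation p = 0.314).

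Other genes were ranked by how closely their deviations followed each Cyp4 gene over the 96 arrays, as a description, since arrays of 1 group share dose, sex and day. Nearest to Cyp4f15 were Naxd (r = 0.64), Gpt, alanine aminotransferase (0.61), and Trit1 (0.59). Nearest to Cyp4v3 were Ephx2, soluble epoxide hydrolase (0.64), Ttc39c (0.58) and Txnl4b (0.54), and nearest to Cyp4f14 were Zfp955a (0.64), Macrod1 (0.53) and Cyp4f13 (0.51). Cyp4f13 was followed by Hpd and Dmgdh, enzymes of tyrosine and choline breakdown (0.53 and 0.52), and Chchd7 (0.52), and Cyp4a14 by Cyp4a31 (0.75), Retsat (0.48) and Acot1 (0.48).

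Ranked instead by the 24 group means, which carry the effects of dose, sex and day, Cyp4v3 was nearest to Uqcr11 (r = 0.95), Il1rap (0.93) and Ephx2 (0.93). Cyp4f15 was nearest to Abcc2, a canalicular export pump (0.88), Rhbdd2 (0.85) and Tex261 (0.84). Cyp4f14 was nearest to Mier1 (0.86), Zfp955a (0.84) and Atp5h (0.78), Cyp4f13 to Tnks2 (0.82), Cyhr1 (0.81) and Zfand6 (0.81), and Cyp4a14 to Cyp4a31 (0.82), Hamp (0.80) and Card10 (0.79).

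The rest of the pathway was read at 150 against 0 on average, beside the 8.27% of all genes that rose and the 9.42% that fell. Of 14 other Cyp4 genes 7 were measured, none rose, and 1 fell, Cyp4b1 (-0.21, adjusted p = 0.0257), a call lost without the arrays of replicate 1, 3 or 4 (adjusted p = 0.0733 to 0.146). Their median change was 0.04. The 5 left had log2 changes of 0.29 for Cyp4a12a, 0.10 for Cyp4f16, 0.04 for Cyp4f18, 0.11 for Cyp4f39 and 0.03 for Cyp4x1 (at 2.86 to 3.38 in the arrays at 150, below the lower quartiles), none of which passed, besides Cyp4a31 above.

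Of the P450 electron donors 3 of 4 were measured and 2 rose. Cyb5a, microsomal cytochrome b5, rose by 0.25 (adjusted p = 2.59e-15), with 13.87 to 14.04 in the 16 arrays at 150 and 13.67 to 13.78 in those at 0. Cyb5r3, its reductase, rose by 0.13 (adjusted p = 0.0396), which was lost without the arrays of replicate 1, 2 or 4 (adjusted p = 0.072 to 0.417), and Cyb5b, the mitochondrial form, stood at -0.01 (adjusted p = 0.961). Por, the P450 reductase, has no probe set of its own symbol and was not analysed here.

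Among the enzymes that oxidize or activate omega-hydroxy and medium-chain fatty acids, 10 of 11 were measured, 2 rose and 3 fell, with a median change of -0.02. Aldh3a2, fatty aldehyde dehydrogenase, rose by 0.41 (adjusted p = 0.00729) and Acsm1, a medium-chain acyl-CoA synthetase, by 0.24 (adjusted p = 0.00124). Acsm3, of the same family, fell by 0.25 (adjusted p = 0.00406) and Aldh9a1, an aminoaldehyde dehydrogenase, by 0.13 (adjusted p = 0.00594). The third that fell was Acsl5, an acyl-CoA synthetase (-0.15, adjusted p = 0.0173), named after its value was seen. Leaving out 1 replicate number ended the calls of Aldh3a2 (replicate 2, 0.35, adjusted p = 0.0988), Acsm1 (replicate 4, 0.19, adjusted p = 0.0599) and Aldh9a1 (replicate 1, -0.11, adjusted p = 0.0987).

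Of 19 genes of peroxisomal beta-oxidation 17 were measured, none rose, and 4 fell, with a median of -0.08. They were Eci2, an enoyl-CoA isomerase (-0.37, adjusted p = 3e-07), Crot, which exports shortened acyl groups as carnitine esters (-0.35, adjusted p = 0.00148), Pex11a, a peroxisome division factor (-0.25, adjusted p = 0.00198), and Hsd17b4, the D-bifunctional protein (-0.15, adjusted p = 0.000125). The change of Hsd17b4 was -0.06 when all its probe sets were averaged (adjusted p = 0.245). Those of Crot and Pex11a lost their calls without the arrays of replicate 1 (-0.27, adjusted p = 0.0818) and of replicate 2 (-0.19, adjusted p = 0.0689).

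Ppara itself averaged 10.12 at 150 and 10.72 at 0 and fell by 0.60 (SE 0.08, adjusted p = 8.39e-09). With its partners, 9 of 11 genes were measured, none rose, and 4 fell, with a median of -0.15. The others were Lpin1, a phosphatidate phosphatase and coactivator (-0.91, adjusted p = 0.00104), Rxra (-0.17, adjusted p = 0.00025) and Rxrb (-0.14, adjusted p = 0.00755), the receptors that pair with PPAR alpha. Averaging all probe sets moved Rxra to -0.02 (adjusted p = 0.741), and Rxrb lost its call without the arrays of replicate 1 (-0.13, adjusted p = 0.0931) or 3 (-0.13, adjusted p = 0.0521).

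Of 31 other known PPAR alpha targets 28 were measured, 17 fell and 1 rose, with a median of -0.22 beside -0.01 over all genes. Examples are Acadvl, of mitochondrial fatty acid oxidation (-0.32, adjusted p = 4.3e-13), Plin5, a lipid droplet protein (-0.80, adjusted p = 1.7e-10), Retsat, retinol saturase (-0.83, adjusted p = 2.53e-09), and Hadhb, of the trifunctional protein (-0.25, adjusted p = 2.53e-09). The 1 that rose was the fatty acid transporter Cd36 (0.32, adjusted p = 0.0239), named after its value was seen. The list was written with earlier results on these arrays known.

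All 20 measured CAR targets of a list of 24 rose, with a median of 1.36. Beside Cyp2b10 and Cyp2c55, they include Gstm3, a glutathione transferase (2.44, adjusted p = 1e-27), and Cyp2c50 (1.09, adjusted p = 1.33e-25). The list of CAR targets was also written with earlier results on these arrays known, so its count is no separate support. It shares genes with the list of sex-biased genes below. For leukotriene and epoxide metabolism 11 of 13 genes were measured, 3 rose and 2 fell, with a median of -0.02. Ephx1, microsomal epoxide hydrolase, rose by 1.16 (adjusted p = 1.43e-15) and Ptgr1, which degrades leukotriene B4, by 0.75 (adjusted p = 1.78e-10), whereas Ephx2 fell by 0.26 (adjusted p = 6.92e-05) and Cyp2j9 by 0.32 (adjusted p = 0.00182). The third that rose was Ptgs2, prostaglandin synthase (0.16, adjusted p = 0.00923), named after its value was seen.

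Of 17 genes with sex-biased expression in mouse liver 12 were measured, 4 rose and 1 fell at 150. Sult3a1 rose by 1.76 (adjusted p = 0.000616), Hao2 by 1.02 (adjusted p = 0.00715) and Cyp2b13 by 0.96 (adjusted p = 0.00583), all higher in females here (by 7.73, 3.29 and 5.22). Hsd3b5, higher in males (-3.12), fell by 1.07 (adjusted p = 0.00234). The fourth that rose was Cyp2b9 (0.87, adjusted p = 0.0323), named after its value was seen. Calls were lost without the arrays of replicate 3 for Sult3a1 (0.89, adjusted p = 0.0807), of replicate 1 or 3 for Hao2 (0.81 and 0.82, adjusted p = 0.117 and 0.0831) and of replicate 2 or 3 for Cyp2b13 (0.88 and 0.72, adjusted p = 0.102 and 0.103).

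Some markers of liver cell types passed at 150 on average, and those that did are named after their values were seen. Of 7 hepatocyte markers 3 fell (Apoa1, F2 and Hnf4a, by 0.07, 0.14 and 0.12), with a median of -0.05, and their summed log2 values ran from 95.57 to 97.00 at 150 and from 95.74 to 97.27 at 0. Of 9 Kupffer cell and macrophage markers 2 rose, Cd5l by 0.39 and Mpeg1 by 0.45 (median 0.15, sums of 77.41 to 88.33 at 150 and 74.97 to 90.49 at 0). Of 8 stellate cell markers 3 fell, Lrat by 0.61, Reln by 0.42 and Dcn by 0.33 (median -0.15, sums of 65.23 to 69.47 and 67.04 to 71.02), and of 8 sinusoidal endothelial markers 2 fell, Stab2 by 0.47 and Clec4g by 0.21 (median -0.10, sums of 66.00 to 70.29 and 65.63 to 70.08). Of 6 neutrophil markers 1 rose, S100a8 by 2.52 (sums of 35.13 to 43.02 and 34.11 to 39.83), and of 3 pancreas markers 1 fell, Cela1 by 0.58 (sums of 21.11 to 22.73 and 22.07 to 23.15). No marker of cholangiocytes, T and B cells or adipocytes passed, and 1 of 5, 0 of 5 and 2 of 3 of these lay on average at or below the arrays' highest lower quartile. The part of these cell types in the changes of the Cyp4 genes was not tested.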

How the data were processed

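Liver RNA of 96 samples was measured on single-colour arrays. Per the labels' protocols, Trizol was used for extraction and 4 μg of RNA went into biotin labelling with an Enzo kit. The authors deposited normalized log2 values. How they were normalized was not given in the sources used here. The lower quartile of an array was 3.91 to 4.09 and the median 5.35 to 5.44. Of 45101 probe sets, 64 controls were left out, and 34945 carried 1 gene symbol in the platform annotation, 932 several and 9160 none. The highest-mean probe set stood for each of 18193 genes, of which 9010 had several.

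A mean per group of sex, dose and day was fitted to the log2 values with limma 3.58.1 (R 4.3.3), with 72 residual and 4.39 prior degrees of freedom. P-values are two-sided and were adjusted over all genes of a comparison by Benjamini-Hochberg, with a threshold of 0.05; "rose" and "fell" mean past that threshold. Averages over sex and day are means of 4 comparisons, and dose steps are the ranks of the 6 doses. The replicate numbers showed no pairing of samples on average: deviations of arrays with the same number correlated by a mean of 0.0013 (-0.29 to 0.38). Whether the numbers pair samples in some of the groups was not tested. The fits were tested on simulated data. Intervals are 95% intervals of the fit. Correlations used Python 3.11.15 with numpy 2.4.6.

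The Cyp4 genes and all gene lists were chosen with earlier results of these data known. Genes named from lists are those that passed at 150 with the smallest adjusted p, up to 4 a list, all measured genes of the other Cyp4 and electron donor lists, and the 3 genes nearest to each Cyp4 gene. Alternatives were probe set choice, quantile normalization, filtering of dim genes, subsets of arrays, variance models, array weights, a replicate block and leaving out arrays; dropping the pair of doubted arrays and using the shared probe set were chosen after seeing the data. Sequences come from RefSeq (GRCm38.p6), with 1 window for Cyp4f13, Cyp4f15 and Cyp4v3 and 4 for Cyp4f14.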

Additional observations from a re-analysis of the deposited data

Results flagged for a closer look

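In 11 of 144 groups of 4 arrays, over the 5 measured genes and the shared Cyp4a10/Cyp4a31 probe set, 1 array stood apart from the other 3 by more than Dixon's 95% critical value for groups of 4; chance gives about 1 group in 20. For Cyp4f15 these were the highest arrays of females at 75 on day 7 (11.47), of males at 15 on day 7 (11.25) and of males at 0 on day 7 (11.18), and the lowest arrays of females at 150 on day 7 (10.96) and of females at 15 on day 7 (10.57). The low array of females at 150 and the high array of males at 0 are those through which the Cyp4f15 groups overlapped on day 7. For Cyp4f14 they were the lowest arrays of females at 150 on day 7 (11.40) and of males at 0 on day 2 (11.43), and the highest of females at 1.5 on day 7 (12.33). For Cyp4f13 it was the highest array of males at 150 on day 2 (8.28). For the shared probe set they were the lowest array of females at 15 on day 7 (8.46) and the highest of females at 0 on day 2 (11.01).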

How the results depend on the processing

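The averaged changes of Cyp4f15 and Cyp4v3 at 150 and at 75, and their changes per dose step, kept direction and call under every alternative run; at 150 they ranged from 0.35 to 0.42 and from -0.49 to -0.35. Over the alternatives for the averaged comparisons of the 5 genes, those at 150 in each sex and day, and every other called comparison, 869 values kept direction and call, 38 lost a call, 8 gained one and 9 changed sign, the last all uncalled. The other comparisons (differences in response between sexes and days, and uncalled ones at dose 0 or within 1 sex and day) were recomputed only without the doubted arrays. The gains were Cyp4f13 at 75, between days and between sexes, Cyp4v3 in males on day 7 at 150, and Cyp4a14 per dose step, also with dim genes left out (adjusted p = 0.0461). With the replicate number as a block, all 5 members still passed at 150, Cyp4a14 at -1.36 (adjusted p = 0.0332), and 3222 genes passed; the block changed no call of the members. With each replicate number left out in turn, the averages at 150 ran from -1.54 to -1.17 for Cyp4a14, -0.30 to -0.22 for Cyp4f13 and -0.33 to -0.19 for Cyp4f14, and 3 to 4 members passed. The small uncalled averages ran as follows: Cyp4a14 from -0.49 to 0.016 between days and -0.47 to 0.012 at 1.5, Cyp4f13 from -0.049 to 0.0073 at 1.5, and Cyp4f14 from -0.0042 to 0.077 between days, -0.032 to 0.029 at 1.5, -0.058 to 0.0085 at 15 and -0.017 to 0.11 between sexes. Single arrays left out gave -1.28 to 0.14 for Cyp4a14 in males on day 2 at 150, and 1 to 2 members called in females on day 2. In the fit of all 96 arrays, 17.7% of all genes passed at 150 on average and 5.46% in females on day 2.

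Genes called at 150 ranged, with 1 array left out, from 244 to 402 in females and 310 to 617 in males on day 7, and from 601 to 1049 in females and 551 to 833 in males on day 2. With a replicate number left out, 728 to 1068 genes passed at 75 and 1652 to 2303 between days. Array weights gave 681 genes in females on day 7 and 2 members between days (Cyp4f13 joining at 0.11, adjusted p = 0.0439), and the mean of all probe sets gave 1 member in males on day 7 (Cyp4v3, -0.42, adjusted p = 0.0424). In the fit of all 96 arrays, 15.5% of all genes passed between days and 3.04% in males on day 7 at 150. Of 31 other genes named at 150, 13 lost their call under an alternative and 18 kept it. The cause was not tested, other than that fits without arrays hold fewer of them.

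Of the 3 correlated pairs, 0 passed in males alone or on day 2 alone, and 1 to 3 with a replicate number left out. Cyp4f15 and Cyp4v3 passed in females alone (0.48, adjusted p = 0.00947). Other uncalled correlations changed sign for Cyp4a14 with Cyp4f14 (0.098 in females, 0.016 on day 7, -0.21 to 0.15 with a replicate number left out), with Cyp4v3 (0.22 in females, 0.070 on day 7, 0.0086 without the doubted arrays, -0.11 to 0.036 with a replicate number left out) and with Cyp4f15 (-0.036 in males, -0.060 on day 7), and in males for Cyp4f15 with Cyp4f13 (-0.17; -0.043 to 0.16 with a replicate number left out), Cyp4f14 (-0.11) and Cyp4v3 (-0.12; -0.0017 on day 2; -0.0077 to 0.24 with a replicate number left out).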

Other observations

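Among the 10 genes whose within-group deviations were nearest to those of Cyp4a14, 4 lie on chromosome 4 with it, against 6.03% of all placed genes: Cyp4a31 (r = 0.75, with 1 protein-coding gene between), Cmpk1 (0.46, 8 between), Atpaf1 (0.45, 6 between) and Usp24 (0.43, 86 between). The nearest gene to Cyp4f14, Zfp955a (r = 0.64), is a zinc finger gene that lies 10 protein-coding genes away on chromosome 17. Of its 10 nearest genes 2 were on chromosome 17, which holds 4.62% of the placed genes. For Cyp4f15, which lies on the same chromosome, 0 of 10 were. These genes were chosen for their likeness, and no test was made of their positions.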
